A study of Rattus norvegicus with 8 samples.

Results

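The smooth muscle contractile program is described here through 33 genes that were listed by symbol for their known role in contraction: filament proteins, regulators of myosin, cytoskeletal and adhesion proteins, transcriptional regulators, ion channels and muscarinic receptors. A gene was matched where a locus of the deposited table carried exactly its symbol. Of the 33 listed genes 30 were matched in this way, among 52753 loci in all. Actg2, Tagln and Myocd occurred only in loci that carry a second symbol, so their values are given separately as shared loci and are left out of all counts over the 30 genes. No expression value decided the match of these 30 genes, though the list itself was chosen with earlier results of these data known. Where a symbol had several exact loci, as for some genes of the further lists below, the locus with most fragments was taken.

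The tissue was small intestine of Sprague Dawley rats at postnatal day 21, taken over its full length and freed of mesentery, so muscle layers and mucosa were extracted together. In both groups the lumen was rinsed with saline containing 10 mM dithiothreitol, a reducing agent that loosens mucus. Messenger RNA was sequenced with strand information in 4 libraries from rats with cystic fibrosis (CF) and 4 from wild-type (WT) rats. In CF the epithelial anion channel CFTR is lost or defective through inherited mutations. The labels give neither the Cftr allele, the sex nor the litter, and nothing in them ties a library to a separate animal. The p-values therefore measure the spread between these libraries, which may be technical.

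Smooth muscle contracts when calcium entering through L-type channels or released from stores leads to activation of myosin light chain kinase. The phosphorylated myosin then pulls on actin filaments that are anchored at dense bodies and at membrane plaques. In the gut this machinery is concentrated in the muscularis, and the transcription factor SRF with its coactivator myocardin drives many of its genes through a DNA element known as the CArG box.

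The libraries held 15.3 to 20.9 M assigned fragments (18.6 to 20.9 M in CF and 15.3 to 20.8 M in WT). Libraries carry the numbers 0 to 3 of the deposited table, and values within a group are given in that order. Levels are counts scaled to library size (CPM), as mean ± SD (n = 4 per group), and log2 fold changes compare CF to WT, with standard errors (SE). A gene is called where edgeR's quasi-likelihood test gave a Benjamini-Hochberg adjusted p under 0.05 over the 16941 loci tested. Per-length levels are the deposited FPKM, fragments scaled to transcript length and library size.

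In CF, desmin and calponin transcripts were near double their WT levels, while the myosin heavy chain Myh11 and the actin Acta2 were at similar levels in both groups. All 30 matched genes passed the filter on low counts. Their means were higher in CF for 24 and lower for 6, with a median log2 fold change of 0.13, against -0.0049 over all tested loci, of which 49.2% had a higher mean in CF. None of the 30 was called by edgeR's quasi-likelihood test, which called 0.165% of all loci (28 of 16941). At an unadjusted p under 0.05, 7 of the 30 (23.3%) were higher in CF, beside 7.94% of all loci, and 1 (3.33%) was lower, beside 7.21%. DESeq2 called 2 of them, Des and Cnn1, and 3.02% of all loci it tested. The edgeR test without the low-count filter called the same 2 genes and 1.38% of its loci. The 4 CF libraries all lay above the 4 WT libraries for 5 of the 30 genes (16.7%), beside 4.86% of all loci. For no gene of the 30 did all CF libraries lie below WT, beside 3.91% of all loci. The genes were chosen with earlier results of these data known, so these shares are descriptions and no independent evidence of a difference. The count of higher means rested in part on WT library 3: without it 16 of 30 were higher, with a median of 0.01. Some listed genes are widely expressed outside muscle (Actn1, Flna, Vcl, Myl6, Tpm1, Cald1, Ppp1r12a, Srf and Csrp1). Without them the median over all libraries was 0.12.

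**Figure D1:**
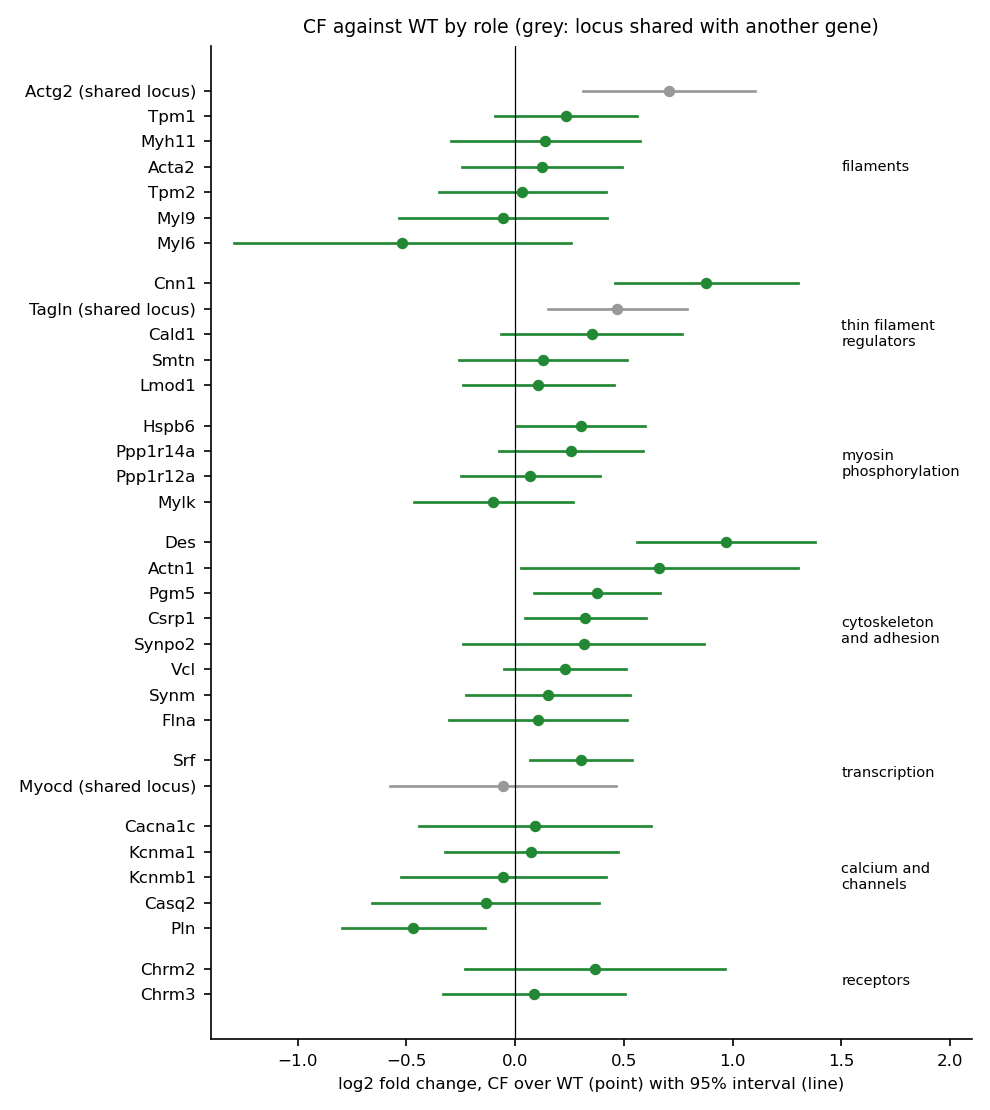
Log2 fold change of CF over WT for each listed gene (horizontal axis; points, with 95% intervals as lines), grouped by role, with loci that carry a second symbol in grey. The intervals of Des, Cnn1 and the Actg2 locus lie furthest to the right of 0, and that of Pln lies wholly to its left.

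Desmin (Des) forms the intermediate filaments that link dense bodies in muscle. Its locus lies on chromosome 9, 82556572 to 82564294 (Rnor_6.0). Des was at 1542, 1309, 1208 and 1969 CPM in CF libraries 0 to 3 and at 656, 887, 847 and 691 CPM in WT libraries 0 to 3. The lowest CF library lay above the highest WT library. The means were 1507 ± 338 CPM for CF and 770 ± 114 CPM for WT, a ratio of 1.96 and a log2 fold change of 0.97 (SE 0.18, 95% interval 0.56 to 1.38). The adjusted p was 0.0689 (edgeR quasi-likelihood, Benjamini-Hochberg), and over all alternatives it ranged from 6.95e-07 without the low-count filter to 0.213 with a library left out. With DESeq2 it was 1.43e-05. On the deposited per-length scale Des averaged 563 ± 125 FPKM in the CF and 290 ± 38.2 FPKM in the WT libraries.

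Calponin 1 (Cnn1) is an actin-binding protein that slows the actomyosin cycle and marks differentiated smooth muscle. It lies on chromosome 8, 23113047 to 23121761. Cnn1 was at 564, 535, 496 and 843 CPM in CF and at 348, 377, 346 and 254 CPM in WT. CF library 3 stood highest and the groups did not overlap. The means of 610 ± 158 and 331 ± 53.3 CPM differed 1.84-fold, with a log2 fold change of 0.88 (SE 0.19, interval 0.46 to 1.3) and an edgeR adjusted p of 0.0896. Under the alternatives that adjusted p ranged from 1.87e-05 to 0.234, and with DESeq2 it was 0.000539. Cnn1 averaged 250 ± 25.2 FPKM in the CF and 144 ± 29.4 FPKM in the WT libraries.

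**Figure D2:**
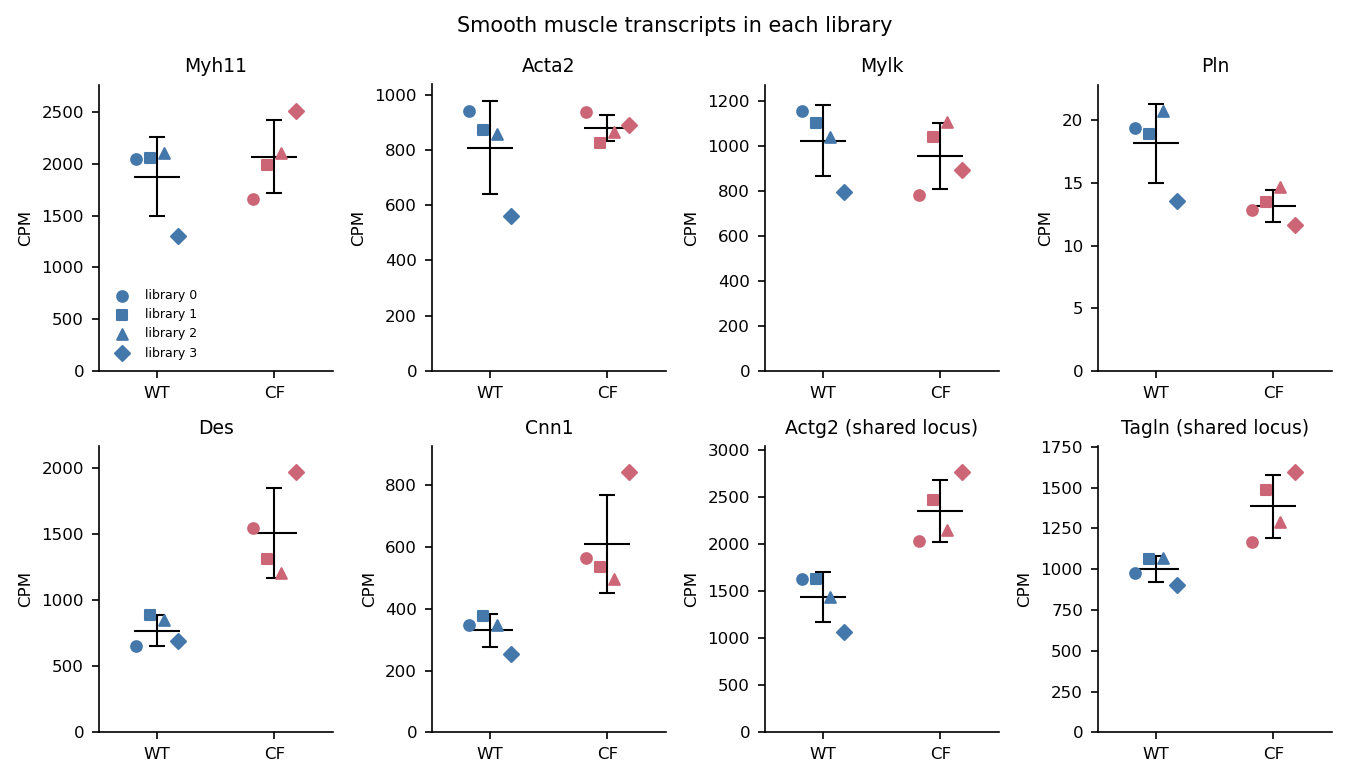
CPM of 6 genes and 2 shared loci in each library (marker shape gives the library number; bars are mean ± SD, n = 4 per group; each vertical axis starts at 0). The groups overlap for Myh11, Acta2, Mylk and Pln and do not overlap for Des, Cnn1 and the Actg2 and Tagln loci.

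Gamma-enteric actin (Actg2) is the main smooth muscle actin of the gut. Its only locus, on chromosome 4 from 115215059 to 115239723, also carries a clone-based symbol, and the fragments of the 2 cannot be separated in the table. That locus was at 2033, 2467, 2152 and 2770 CPM in CF and at 1629, 1635, 1436 and 1073 CPM in WT. The groups did not overlap. Its means were 2355 ± 331 and 1443 ± 264 CPM, a log2 fold change of 0.71 (SE 0.18, interval 0.31 to 1.1), with an edgeR adjusted p of 0.131 and a DESeq2 adjusted p of 0.00139. At 1349 FPKM in CF and 853 FPKM in WT it had the highest per-length level of the listed loci in CF, while in WT the shared Myl6 locus stood higher, at 905 FPKM.

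Acta2, the alpha-smooth muscle actin, is shared by gut, vascular and airway muscle. It lies on chromosome 1, 252537614 to 252550394. It was at 935, 826, 863 and 891 CPM in CF and at 942, 872, 857 and 561 CPM in WT. WT library 3 stood below the other 7 libraries, which lay within the same range in both groups. Acta2 had a log2 fold change of 0.12 (SE 0.17, interval -0.25 to 0.49, edgeR adjusted p 0.769), so a difference of the size seen for Des lay outside its interval. Without WT library 3 it was -0.02. Acta2 averaged 556 ± 104 FPKM in the CF and 519 ± 139 FPKM in the WT libraries.

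Myh11 encodes the smooth muscle myosin heavy chain and lies on chromosome 10, 764393 to 859207. It was at 1665, 1990, 2103 and 2516 CPM in CF and at 2050, 2059, 2102 and 1301 CPM in WT. The groups overlapped, with WT library 3 lowest and CF library 0 next. Its means were 2068 ± 351 and 1878 ± 385 CPM, with a log2 fold change of 0.14 (SE 0.20, interval -0.29 to 0.57, edgeR adjusted p 0.777).

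The light chains and tropomyosins overlapped between the groups at their own loci. Myl9, the regulatory light chain that is phosphorylated on activation, averaged 753 ± 206 CPM in the CF and 782 ± 128 CPM in the WT libraries (log2 fold change -0.05, SE 0.22). CF library 0 held its lowest value, 454 CPM, against 783 to 901 CPM in the other CF libraries. Tpm1, a tropomyosin that lies along the actin filament, was at 1235 ± 106 and 1049 ± 149 CPM (log2 fold change 0.23, SE 0.15), and Tpm2 was at 610 ± 119 and 596 ± 86.1 CPM (0.03, SE 0.17). Myl6, the essential light chain of smooth and non-muscle myosin, cannot be read from its own locus, which held 117 fragments over all 8 libraries (log2 fold change -0.52, interval -1.29 to 0.26). A second locus of the same span on chromosome 7 that carries Myl6 beside a clone-based symbol held 118874 fragments. It averaged 841 ± 29.7 CPM in the CF and 742 ± 77.2 CPM in the WT libraries (log2 fold change 0.18, SE 0.12, edgeR adjusted p 0.517), and its groups did not overlap. The Myl6 locus with 117 fragments stays in all counts over the 30 genes, with a lower mean in CF. The second locus is left out of them.

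Among regulators of the thin filament, log2 fold changes ran from 0.11 to 0.88, with Cnn1 the highest. Tagln encodes transgelin, an actin-binding protein related to calponin. Its locus on chromosome 8, 50200068 to 50246787, also carries Sidt2, a lysosomal membrane protein. It was at 1169, 1488, 1291 and 1595 CPM in CF and at 975, 1061, 1066 and 900 CPM in WT, without overlap, a log2 fold change of 0.47 (SE 0.14, interval 0.15 to 0.79, edgeR adjusted p 0.187, DESeq2 adjusted p 0.0134). Caldesmon (Cald1), which holds back myosin on the actin filament, averaged 405 ± 98.5 CPM in the CF and 317 ± 55.9 CPM in the WT libraries (log2 fold change 0.35, SE 0.19, edgeR adjusted p 0.407). Smoothelin (Smtn), a marker of contractile smooth muscle, was at 246 ± 45.1 and 225 ± 42.2 CPM (0.13, SE 0.17). Leiomodin 1 (Lmod1), an actin filament nucleator, was at 98.6 ± 16.0 and 91.5 ± 17.5 CPM (0.11, SE 0.16). The 2 groups overlapped for Cald1, Smtn and Lmod1.

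The enzymes that set myosin phosphorylation showed no called difference. Mylk, the myosin light chain kinase, was at 783, 1040, 1105 and 892 CPM in CF and at 1157, 1101, 1040 and 796 CPM in WT. The groups overlapped over most of their range. Its log2 fold change was -0.10 (SE 0.17, interval -0.47 to 0.27, edgeR adjusted p 0.814). Ppp1r12a, the targeting subunit of myosin phosphatase, was at 200 ± 24.4 and 191 ± 32.7 CPM (0.07, SE 0.14), and its inhibitor Ppp1r14a (CPI-17) was at 13.0 ± 2.06 and 10.9 ± 1.28 CPM (0.26, SE 0.15). Hspb6, a small heat shock protein linked to relaxation, was at 92.8 ± 7.76 and 75.3 ± 12.7 CPM (0.30, SE 0.13, edgeR adjusted p 0.323).

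All 8 cytoskeletal and adhesion genes, Des among them, had a higher mean in CF, beside 49.2% of all loci, though Flna was at -0.038 (log2) without WT library 3. In 3 of the 8 the CF libraries lay wholly above WT, beside 4.86% of all loci. Their median log2 fold change was 0.32. Pgm5 encodes aciculin, a protein of dense plaques. It was at 115, 111, 121 and 143 CPM in CF and at 102, 101, 100 and 74.3 CPM in WT (log2 fold change 0.38, SE 0.13, edgeR adjusted p 0.228). Its groups were separate but close, with 111 CPM as the lowest CF and 102 CPM as the highest WT value. Csrp1, a LIM protein of smooth muscle, was at 469, 509, 537 and 563 CPM in CF and at 422, 428, 465 and 346 CPM in WT (0.32, SE 0.13, edgeR adjusted p 0.273). Here too the nearest libraries, 469 and 465 CPM, were almost level.

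Actn1 encodes an alpha-actinin that anchors actin at adhesion sites in many cell types. It was at 311, 165, 163 and 214 CPM in CF and at 187, 141, 133 and 77.8 CPM in WT. The groups overlapped, and CF library 0 and WT library 3 held the highest and lowest values. Its log2 fold change of 0.66 (SE 0.28, edgeR adjusted p 0.311) was 0.43 without CF library 0 and 0.47 without WT library 3. The others of this role were nearer to level. Synaptopodin 2 (Synpo2), an actin-bundling protein, had a log2 fold change of 0.32 (SE 0.25), vinculin (Vcl), an adhesion linker, 0.23 (SE 0.13), synemin (Synm), an intermediate filament partner of desmin, 0.15 (SE 0.17), and filamin A (Flna), an actin crosslinker, 0.11 (SE 0.19).

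Srf encodes serum response factor, which binds the CArG box. It lies on chromosome 9, 16736362 to 16747226. It was at 88.5, 97.4, 109 and 99.0 CPM in CF and at 85.3, 79.2, 85.8 and 69.4 CPM in WT. The lowest CF value stood just above the highest WT value. The means of 98.5 ± 8.46 and 79.9 ± 7.62 CPM gave a log2 fold change of 0.30 (SE 0.11, interval 0.07 to 0.54, edgeR adjusted p 0.232). The locus that carries Myocd, the coactivator myocardin, together with a clone-based symbol averaged 18 ± 1.89 CPM in the CF and 18.7 ± 6.16 CPM in the WT libraries (-0.06, SE 0.23, edgeR adjusted p 0.934).

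The listed genes' promoters from RefSeq (GRCr8, a later build than that of the counts) were searched over the 250 bases before the start for the CArG box. Of the 33 listed genes 28 had an entry, with 29 promoters among the 33469 in that table. The box reads the same on both strands, so 1 search covers both. An exact box occurred in 1 of the 29 promoters (3.45%), that of Srf, against 1.5% of all promoters, and a box with up to 1 mismatch in 8 of 29 (27.6%), against 18.7% of all. The 150 bases before the start are shown for 4 genes: Srf, the 1 promoter with an exact box, Acta2, with 2 boxes that each have 1 mismatch and a level transcript, and Des and Cnn1, the genes furthest apart between the groups. They read 5′ to 3′ on the gene's strand, with exact boxes and boxes with 1 mismatch in capitals.
Srf, chr9:21923926-21924075, plus strand: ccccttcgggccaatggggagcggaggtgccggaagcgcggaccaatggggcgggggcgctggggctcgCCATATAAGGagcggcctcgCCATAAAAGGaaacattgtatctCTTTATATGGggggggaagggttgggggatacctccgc
Acta2, chr1:241172504-241172653, minus strand: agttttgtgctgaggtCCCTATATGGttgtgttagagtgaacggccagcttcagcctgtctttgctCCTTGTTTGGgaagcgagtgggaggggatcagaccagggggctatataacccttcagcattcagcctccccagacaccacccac
Des, chr9:84299476-84299625, plus strand: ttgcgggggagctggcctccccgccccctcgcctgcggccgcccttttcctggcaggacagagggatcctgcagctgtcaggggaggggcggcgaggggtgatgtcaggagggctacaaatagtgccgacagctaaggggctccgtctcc
Cnn1, chr8:28908287-28908436, plus strand: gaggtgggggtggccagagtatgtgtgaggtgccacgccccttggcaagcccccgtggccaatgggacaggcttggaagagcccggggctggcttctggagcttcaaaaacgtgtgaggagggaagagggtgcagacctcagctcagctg

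In the Srf promoter the exact boxes began 81 and 61 bases before the start, and a box with 1 mismatch began 38 bases before it. In the Acta2 promoter the boxes began 134 and 84 bases before the start. The promoters of Tpm1 and Casq2, not shown, also had 2 boxes with 1 mismatch each, and those of Casq2 overlap. Whether boxes and fold changes go together was not tested. The windows of Des and Cnn1 held no box with up to 1 mismatch, which says only that these letters are not in the 250 bases searched.

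Calcium handling genes and channels lay near level or below. Phospholamban (Pln) restrains the calcium pump of the sarcoplasmic reticulum. Its locus lies on chromosome 20, 34575348 to 34684418. Pln was at 12.8, 13.5, 14.6 and 11.6 CPM in CF and at 19.4, 18.9, 20.8 and 13.6 CPM in WT. The groups overlapped only through WT library 3. Pln had a log2 fold change of -0.47 (SE 0.15, interval -0.79 to -0.14, edgeR adjusted p 0.197), and -0.58 without that library. Cacna1c, the pore of the L-type calcium channel, averaged 28.4 ± 4.18 CPM in the CF and 26.7 ± 8.92 CPM in the WT libraries (0.09, SE 0.24). The pore of the large-conductance potassium channel, Kcnma1, differed by 0.07 (log2, SE 0.18) and its beta subunit Kcnmb1 by -0.05 (SE 0.21). Calsequestrin 2 (Casq2), a calcium-storing protein, was at 11.0 ± 2.94 and 12.1 ± 3.27 CPM (-0.14, SE 0.24).

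The muscarinic receptors through which acetylcholine contracts gut muscle were expressed at low levels. Chrm3 averaged 25.8 ± 6.01 CPM in the CF and 24.3 ± 4.87 CPM in the WT libraries (0.08, SE 0.19). Chrm2 was at 7.18 ± 1.58 and 5.58 ± 2.20 CPM (0.37, SE 0.27, edgeR adjusted p 0.552). Both overlapped between the groups, and per length Chrm3 was at 5.82 FPKM and Chrm2 at 2.82 FPKM in CF.

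WT library 3 was low for most of the listed genes. The mean of the 30 genes' log2 CPM, each centred on its own mean, was -0.12, 0.10, 0.19 and 0.21 in CF and 0.07, 0.03, -0.00 and -0.48 in WT. WT library 3 was the lowest of all 8 libraries for 21 of the 30 genes and the lowest WT library for 27. The low level there was not particular to these genes. The same mean for marker lists of other cells was -0.31 for Cajal cells and -0.29 each for glia and pericytes. It was -0.20 for neurons, -0.17 for fibroblasts, -0.07 for endothelium, 0.38 for enterocytes and 0.49 for mesothelium. For striated muscle and pancreas it was -0.08 and -0.78. CF library 0 was the lowest CF library for 21, and CF library 3 was the highest of all libraries for 12. On the deposited FPKM with 1 added, CF library 0 was at 0.08 and CF library 3 at -0.11, so the order within CF changed with the scaling. On deposited FPKM 2 of the 30 genes, Des and Cnn1, had CF libraries wholly above WT, beside 2.24% of all loci. In whole tissue, fewer muscle cells and less of a transcript per muscle cell cannot be told apart.

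**Figure D3:**
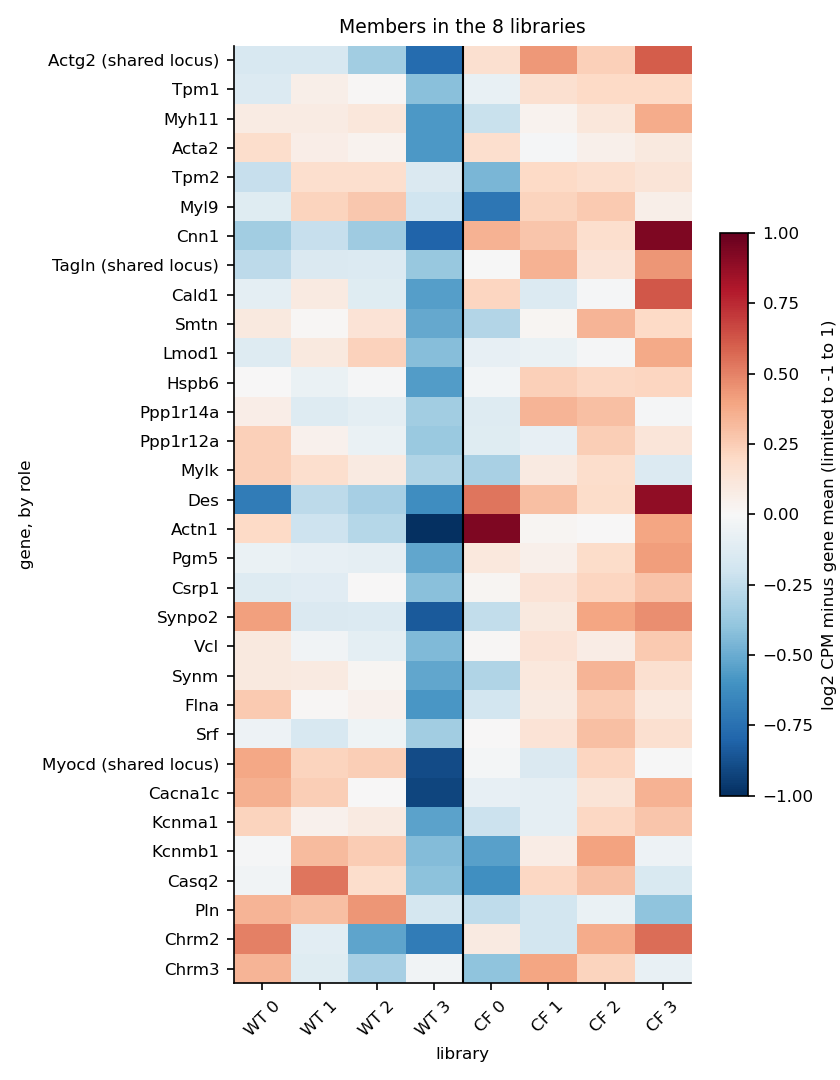
Log2 CPM minus the gene's mean over 8 libraries (colour, limited to -1 to 1) for 29 matched genes and the 3 shared loci (vertical axis, by role) in each library (horizontal axis); Myl6, with 117 fragments, is left out. The column of WT library 3 is blue for most genes, and Des and Cnn1 are red in every CF library.

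To compare genes within a library, each was set against Myh11 of the same library, a ratio that does not depend on scaling between libraries. Of the 29 other genes, 2 had higher ratios in all CF libraries than in any WT library, beside 0.719% of all loci. Lower ratios were found for 1 of the 29, a share no higher than the 4.42% of all loci. Myh11 was itself low in WT library 3 (1301 CPM), which raises the ratio there for loci that did not fall with it. The share of all loci with higher ratios (0.719%) was below that on CPM (4.86%), and it is no like background for muscle genes. The 2 genes with higher ratios, Des and Cnn1, already separated the groups on CPM. The log2 ratio of Des to Myh11 was -0.11, -0.60, -0.80 and -0.35 in CF and -1.64, -1.21, -1.31 and -0.91 in WT, a difference of 0.80 between the means. That of Cnn1 was -1.56, -1.89, -2.08 and -1.58 in CF and -2.56, -2.45, -2.60 and -2.35 in WT, a difference of 0.71. For both genes the lowest CF ratio lay above the highest WT ratio, including WT library 3. The gene with lower ratios was Pln, at -7.02, -7.21, -7.17 and -7.76 in CF and -6.73, -6.77, -6.66 and -6.58 in WT, a difference of -0.60. Among the shared loci, Actg2 also kept its groups apart, at 0.29, 0.31, 0.03 and 0.14 in CF and -0.33, -0.33, -0.55 and -0.28 in WT. Smtn, Lmod1 and Flna had ratios to Myh11 that were near equal in both groups (log2 differences of -0.02, -0.04 and -0.02). These ratios are descriptions and were not tested.

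**Figure D4:**
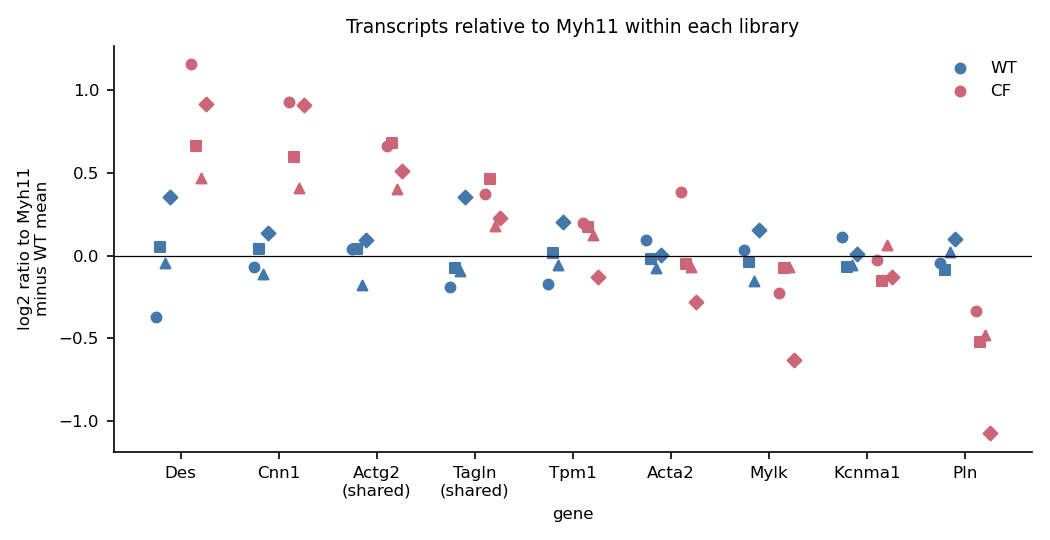
Log2 ratio to Myh11 minus its WT mean (vertical axis) in each library for 7 genes and 2 shared loci (horizontal axis; marker shape gives the library number, circle 0, square 1, triangle 2, diamond 3). CF points of Des, Cnn1 and the Actg2 locus all lie above the WT points, those of Pln lie below, and those of Acta2, Tpm1, Mylk and Kcnma1 overlap WT.

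A further list of 98 genes of smooth muscle signalling and structure was written for comparison, of which 92 were matched and 87 tested. None was called by edgeR's quasi-likelihood test, with 48 higher and 39 lower means in CF and a median log2 fold change of 0.03. At an unadjusted p under 0.05, 9 (10.3%) were higher and 8 (9.20%) lower, against the 7.94% and 7.21% of all loci. DESeq2 called 4 higher (Fhl1, Itga5, Tes and Zyx) and 1 lower (Gucy1a3), beside the 3.02% it called of all its loci.

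In the list of myosin phosphatase and its regulators, 7 of 12 tested genes had higher means. Its most abundant genes were Rhoa, a small GTPase upstream of the phosphatase (697 ± 48.3 CPM in CF, 680 ± 68.2 CPM in WT), and Ppp1cb, the catalytic subunit of the phosphatase (249 ± 5.2 and 239 ± 15.9 CPM). In the calcium and receptor list 7 of 21 had higher means, led in abundance by Atp2a2, the calcium pump that phospholamban restrains (501.0 ± 69.0 and 431 ± 16.8 CPM). None of these 3 genes separated the groups.

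The dense plaque and membrane list had 17 of 27 higher means. Of the 87 further genes tested, 5 (5.75%) had CF libraries wholly above WT, a share near the 4.86% of all loci. Those 5, all on this list, were singled out after their values were seen. Tes, a LIM protein of focal adhesions, was at 113, 120, 103 and 120 CPM in CF and at 81.8, 75.9, 76.7 and 75.8 CPM in WT, with little spread in either group. Its log2 fold change was 0.55 (SE 0.09, edgeR adjusted p 0.0522), and it was called without CF library 0 and without CF library 2. Itga5, the fibronectin receptor subunit, was at 296, 127, 112 and 242 CPM in CF and at 92.3, 72.6, 65.6 and 39.9 CPM in WT (1.52, SE 0.36, edgeR adjusted p 0.132). It is expressed by many cell types besides muscle. Zyx (zyxin, a focal adhesion protein) had a log2 fold change of 0.57 (SE 0.14, edgeR adjusted p 0.115), and the LIM proteins Fhl1 and Fhl2 had 0.50 (SE 0.14) and 0.28 (SE 0.10). The most abundant genes of the list, Itgb1, the shared integrin beta subunit, and Lpp, a LIM protein of dense bodies, were at 0.23 (SE 0.14) and -0.01 (SE 0.16).

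Among the other filament and muscle genes 13 of 17 had higher means, with Dstn, an actin-severing protein (977 ± 78.4 CPM in CF, 847 ± 109 CPM in WT), and Ckb, the brain-type creatine kinase (641 ± 125 and 601 ± 44.5 CPM), the most abundant. Cnn3, a calponin of non-muscle cells, lay lower in every CF library (135 ± 17.3 against 164 ± 8.52 CPM, log2 fold change -0.28, edgeR adjusted p 0.290), opposite in sign to Cnn1. It was 1 of 2 further genes (2.3% of 87) wholly lower in CF, beside 3.91% of all loci, the other being Gucy1a3. Of the transcriptional regulators 4 of 10 had higher means. The most abundant were Klf4, a factor that restrains smooth muscle genes and is also expressed in epithelium, and Gata4, a factor of proximal gut. Klf4 averaged 182 ± 70.3 CPM in the CF and 139 ± 8.74 CPM in the WT libraries. Without CF library 0, at 83.3 CPM, its log2 fold change went from 0.39 to 0.63 and was called. Gata4 was at 123 ± 15.8 and 123 ± 19.4 CPM.

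Markers of the other cells that whole intestine holds were read beside these values, and none was called. Fibroblast markers had lower CF means for 6 of 6 tested, with summed levels of 779 to 1405 CPM in CF and 1149 to 1956 CPM in WT. Endothelial markers were also lower for 6 of 6, at 107 to 162 CPM in CF and 141 to 185 CPM in WT. Pericyte and vascular muscle markers were lower for 4 of 6, at 164 to 210 and 170 to 247 CPM. At an edgeR unadjusted p under 0.05, 3 of 6 fibroblast, 4 of 6 endothelial and 3 of 6 pericyte markers were lower, beside 7.21% of all loci. All CF libraries lay below WT for 1 fibroblast, 2 endothelial and 0 pericyte markers, beside 3.91% of all loci. Markers of enteric neurons were lower for 9 of 10, of glia for 4 of 5, of interstitial cells of Cajal for 3 of 4 and of mesothelium for 4 of 4. Enterocyte markers were higher for 7 of 10, and their mean centred log2 level was -0.85 in CF library 0 against -0.22 to 0.49 in the other 7 libraries. No marker of these lists was at 0 fragments in all libraries, and their part in the differences of the smooth muscle genes was not tested. The markers of smooth muscle itself, Myh11, Acta2, Des and Cnn1, were at 254 CPM or more in all 8 libraries.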

How the data were processed

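The deposited estimated counts are raw fragments for each locus in each library, which the authors had not yet scaled, per the file headers. They were rounded, since 5.99% were fractional. The deposited FPKM had been scaled by the authors to library size and transcript length, per the file headers. Per the submitters' processing notes, the tools were Cuffdiff, StringTie, STAR 2.3.1z, cutadapt and bcl2fastq, and the build was Rnor_6.0. Order and settings: not given in the sources used here. A further pair of per-library columns (2 in all) stayed unused. Coordinates are the table's locus spans, which can take in neighbouring genes. The table numbers libraries from 0 to 3 and the titles from 1 to 4, so the group of a library is known but not its title, and no result uses a tie between them.

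Loci were kept by filterByExpr (minimum count 10, minimum total 15), and TMM factors were applied. All 8 libraries entered 1 robust quasi-likelihood fit in edgeR, with Benjamini-Hochberg adjustment over all loci tested and a threshold of 0.05. The SE is the absolute log2 fold change over the square root of the F statistic, and the 95% interval uses the t quantile for the test's degrees of freedom. Log2 CPM used a prior count of 2. The test was checked on simulated counts at 16531 loci, with recovery of 10.8% for 1.5-fold, 63.1% for 2-fold and 85.3% for 4-fold differences. The changed loci were drawn from all tested loci at any abundance, and 4 of 104 calls were false. Alternatives changed the scaling, the filter, the test (DESeq2), the unit (limma on log2 FPKM plus 1 or 0.1) and the libraries used. Tests ran in edgeR 4.0.16, DESeq2 1.42.0 and limma 3.58.1 under R 4.3.3, and tables and figures in Python 3.11.15 with matplotlib 3.10.9 and pandas 2.3.3.

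The smooth muscle genes and all lists were chosen with earlier results of these data known. Every listed gene is named, and of each further list the 2 genes with the highest mean CPM and any called gene; other genes were named after their values were seen. Not every gene this rule gave is reported here. Fragments of near-identical actins may be shared between loci.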

Additional observations from a re-analysis of the deposited data

Results flagged for a closer look

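In each group of 4 libraries the distance of the highest or lowest log2 CPM from its nearest neighbour was divided by the group's range. A value above Dixon's 95% critical value for 4 libraries was taken as a library standing apart. The 30 genes gave 60 such groups, of which 8 passed. About 5% of groups pass by chance, and genes read in the same libraries are not independent. WT library 3 was the low library for Myh11 (0.949), Hspb6 (0.869), Synm (0.878) and Pgm5 (0.955). CF library 0 was the low library for Tpm1 (0.873), Tpm2 (0.890) and Hspb6 (0.900). CF library 3 was the high library for Lmod1 (0.850). Of the genes whose groups did not overlap, Pgm5 alone is among these.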

How the results depend on the processing

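With 4 libraries per group, changes of 1.5-fold were mostly missed by the test on simulated counts. Those loci were drawn at any abundance, so the recovery is not that of the genes listed here. After Myl6, the genes at the lowest CPM were Chrm2, Casq2, Ppp1r14a, Kcnma1 and Pln. Over the 15 alternatives, 418 of 450 fold changes of the 30 genes kept their direction and side of the threshold, 28 changed sign (12 genes, all with small fold changes) and 4 became called. Loci called higher and lower in CF were 23 and 5. Without the low-count filter they were 396 and 157, with DESeq2 402 and 161, and without CF library 0 and WT library 3 (chosen after seeing the data) 65 and 21, while limma on FPKM called 3 lower with either pseudocount. Leaving out 1 library at a time gave 4 to 118 higher and 1 to 18 lower. Of the 30 genes, 2 were called higher without the filter and 2 with DESeq2, and 0 with any library left out. Of the further smooth muscle genes, 4 were called higher and 1 lower both without the filter (Fhl1, Hspb1, Tes and Zyx, and Gucy1a3) and with DESeq2, and 0 to 2 higher with a library left out (2 without CF library 0, Klf4 and Tes, and 1 without CF library 2, Tes). Genes with CF wholly above WT numbered 5 (4.86% of all loci), with 2 on deposited FPKM (2.24% of all loci). With a library left out they numbered 5 to 8 (8 without CF library 0). The share of all loci was not taken for those settings. Fewer libraries separate more easily, so the rise to 8 cannot be read as a larger difference. Higher means in CF numbered 16 to 27 of 30 with a library left out, lowest without WT library 3. The mean level was 0.081 in CF library 0 on FPKM plus 1 and 0.069 on FPKM plus 0.1, and -0.11 and -0.13 in CF library 3. A shift between the scales was also seen beyond these genes. Over 8267 loci (minimum 200 fragments) the median log2 of FPKM over CPM, centred across libraries, differed by library. CF library 0 stood at 0.16, whereas CF library 3 reached -0.32. For these libraries the mean level of the 30 genes moved in the same directions from CPM to FPKM. How much of the shifts in mean level this offset accounts for was not tested.

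No clear pairing of the groups by library number was seen. Same-numbered libraries correlated at 0.07, -0.11, 0.16 and -0.01, and 2 of 4 CF libraries correlated best with their own number. With 4 libraries per group these values cannot exclude a pairing. With a replicate block on the number, 9 loci were called higher and 2 lower and none of the 30 genes, with adjusted p 0.134 for Des and 0.182 for Cnn1. Under the block the log2 fold change of the Myocd locus was 0.0066 and that of Lpp 0.018, and neither was called.

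Other changes of sign were small. Without CF library 0 and WT library 3 the log2 fold changes were -0.048 for Acta2, 0.049 for Myl9 and -0.063 for Cacna1c. Lpp was at 0.032 without the filter and at 0.0072 with DESeq2. On FPKM plus 1 and plus 0.1, Rhoa was at -0.017 and -0.017 and Gata4 at -0.055 and -0.057. With 1 library left out, log2 fold changes ranged from -0.017 to 0.20 for Acta2, -0.00067 to 0.23 for Myh11, -0.15 to 0.13 for Myl9, -0.037 to 0.17 for Tpm2, -0.011 to 0.21 for Lmod1, -0.029 to 0.17 for Ppp1r12a, -0.038 to 0.22 for Flna, -0.12 to 0.23 for Cacna1c, -0.061 to 0.16 for Kcnma1, -0.21 to 0.093 for Kcnmb1, -0.27 to 0.041 for Casq2, -0.042 to 0.23 for Chrm3, -0.27 to 0.063 for the Myocd locus, -0.015 to 0.11 for Rhoa, -0.12 to 0.13 for Lpp, -0.029 to 0.20 for Ckb and -0.068 to 0.10 for Gata4. RLE scaling changed none of the signs of the genes named here.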

Other observations

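Genes of this paragraph were chosen after their values were seen. Gucy1a3 and Gucy1b3 encode the subunits of soluble guanylate cyclase, the nitric oxide receptor through which smooth muscle relaxes. Gucy1a3 was at 15, 15, 18.2 and 11.5 CPM in CF and at 28.5, 26.7, 24.6 and 20.2 CPM in WT. All CF libraries lay below all WT libraries, with means of 14.9 ± 2.75 and 25.0 ± 3.58 CPM, a log2 fold change of -0.74 (SE 0.16) and an edgeR adjusted p of 0.0829. Gucy1b3 averaged 19.0 ± 4.20 CPM in the CF and 25.4 ± 3.96 CPM in the WT libraries (-0.42, SE 0.17, edgeR adjusted p 0.296), and its groups overlapped. Pericytes and other cells of the gut wall also express this receptor, and the pericyte markers had lower CF means for 4 of 6; their part was not tested.

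Acta1, the skeletal muscle alpha-actin, was at 16.0, 32.8, 34.8 and 53.9 CPM in CF and at 8.28, 13.0, 11.0 and 12.1 CPM in WT. The groups did not overlap, and CF library 0 was the lowest of its group. The means differed 3.10-fold, a log2 fold change of 1.63 (SE 0.32, edgeR adjusted p 0.0814), and without CF library 0 it was 1.87 with an edgeR adjusted p of 0.00908. DESeq2 gave an adjusted p of 1.95e-05, and edgeR without the low-count filter 0.161. Of 8 tested striated muscle genes, Acta1 included, 5 had higher means in CF. Actins are similar in their coding sequence, and whether part of these fragments belongs to the more abundant smooth muscle actins was not tested. The fold of CF over WT was 1.09 for Acta2 and 1.63 for the Actg2 locus.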
